A study of Homo sapiens with 16 samples.

Results

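The mRNAs of heat shock proteins and other protein-folding chaperones are described here in a RIP-seq study, which sequences RNA that comes down with a tagged protein. Members were chosen by gene name: protein-coding rows of the HSPA (without HSPA5), HSPB, HSPD1, HSPE1, HSPH and HSP90 genes, the DNAJA, DNAJB and DNAJC genes, the CCT chaperonin subunits with TCP1, and BAG1 to BAG6. This gave 76 of the 16324 genes listed in both tables, of which 13210 are protein-coding. By their label the cells are UM-SCC-1, grown from a squamous carcinoma of the head and neck and long kept as a cell line. All groups were transduced with lentivirus and selected with puromycin, and carried Strep-ALKBH5, Strep-RBM33 or the tagged vector Strep-Vec-1, so each bait was expressed from a transgene on top of the cell's own gene. ALKBH5 removes the methyl mark m6A from RNA, and RBM33 is an RNA-binding protein. The 16 libraries form 6 groups: 3 pull-down and 3 input libraries for Strep-ALKBH5, 2 and 2 for Strep-RBM33, and 3 and 3 for Strep-Vec-1. Nothing in the labels says whether replicates came from separate cultures, so the p-values may measure technical spread only.

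The data are the authors' own comparisons, 1 table for each bait, with no value per library. Library depth and values per sample are therefore unknown here. For every gene they give a log2 fold change with its F statistic and p-values, and a mean abundance as log2 CPM (read counts scaled to library size, not divided by length). Both tables are labelled siCtrl, whereas the libraries' treatment is given as none. A further RBM33 siRNA treatment of the Strep-ALKBH5 cells in the protocol is not analysed here. The tables state neither which groups were compared nor which way the ratio runs, so values are called positive or negative as deposited. Among the baits' own mRNAs, ALKBH5 stood at 1.28 in the authors' deposited ALKBH5 table and -0.21 in that for RBM33, and RBM33 at 1.17 and 3.41; transgene and cellular transcripts cannot be told apart in these values. A gene is called when the adjusted p (Benjamini-Hochberg over all genes of the table) is under 0.05. An approximate standard error (SE) was worked out as the size of the log2 fold change divided by the square root of F. As a check of the cell label, 5 of 16 squamous epithelial markers had a row, at an average log2 CPM of 1.02 to 5.05 in the authors' deposited ALKBH5 table and 1.65 to 5.46 in that for RBM33, and KRT5, KRT14 and TP63 were among those with no value here. Of 9 markers of embryonic kidney lines, 7 had a row, from 1.83 to 8.10 (NEFL) in the authors' deposited ALKBH5 table and from 1.85 to 7.42 (NEFL) in that for RBM33. Whether this bears on the results was not tested.

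Chaperones bind unfolded or newly made proteins and help them to fold. HSP70 proteins hold short hydrophobic stretches in a cycle driven by ATP, which J proteins (DNAJ) start and nucleotide exchange factors such as HSP110 and BAG proteins complete. HSP90 acts later on kinases, receptors and other clients, and the ring-shaped chaperonins CCT (cytosol) and HSPD1 with HSPE1 (mitochondria) enclose whole proteins. Heat and other stress raise a subset of these genes through the transcription factor HSF1.

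Most chaperone mRNAs were negative for both baits. By the authors' deposited ALKBH5 table, 45 of 76 members were negative and 8 positive, which is 59.2% and 10.5%. Background shares there, over all 16324 genes of the authors' deposited ALKBH5 table, were 29.1% negative and 30.5% positive. For RBM33, 45 members were negative and 7 positive (59.2% and 9.21%), against 27.0% and 24.0% of all genes of the authors' deposited RBM33 table. The members' median log2 fold change was -0.91 in the authors' deposited ALKBH5 table, against -0.08 for protein-coding genes and 0.03 for all genes. It was -0.78 in the authors' deposited RBM33 table, against -0.13 for protein-coding genes and -0.02 for all genes. After subtracting the protein-coding median of the same 1 of 5 bins of listed gene length, the members' medians were -0.58 and -0.50 in the authors' deposited tables for ALKBH5 and RBM33. Members spanned -2.08 to 1.72 in the authors' deposited ALKBH5 table and -1.98 to 2.87 in that for RBM33. The large families did not sit alike within this span: HSP90 and the chaperonins were negative but for CCT6B, whereas HSP70 and the DNAJB and DNAJC genes held both signs. Since the libraries are pull-down and input and the contrast is not stated, a negative value cannot be read as less transcript in the cells. The RNA also came from bulk cultures, in which the share of cells with a transcript and its amount per cell cannot be told apart.

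**Figure D1:**
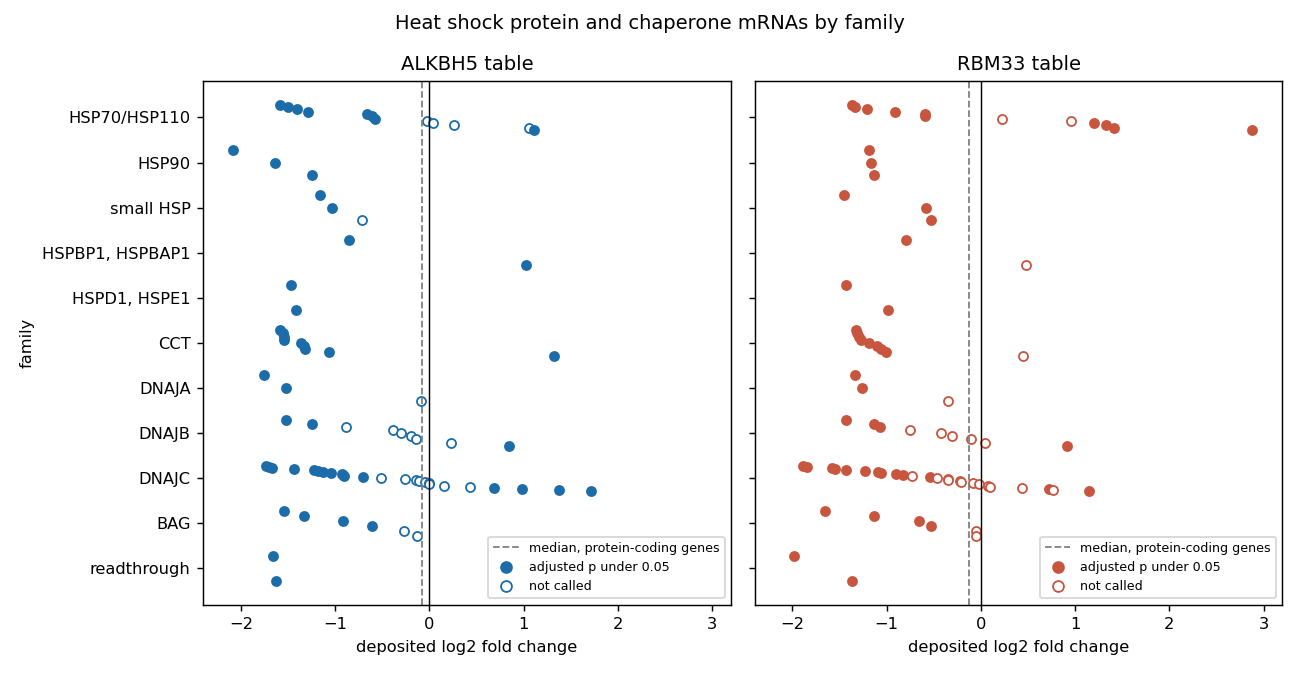
Deposited log2 fold change (horizontal axis) of each of the 76 members, by family (vertical axis), in the ALKBH5 table on the left and the RBM33 table on the right. Filled points passed an adjusted p of 0.05, open points did not, and the dashed line marks the median of all protein-coding genes (-0.08 and -0.13). Most filled points lie left of 0, and the rightmost point of the RBM33 panel is HSPA6 at 2.87.

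The HSP70 family held the 3 members with the highest values for RBM33. HSPA1A and HSPA1B encode the same main heat-inducible HSP70 of the cytosol and nucleus. HSPA1A (ENSG00000204389, chromosome 6, 31815543 to 31817946, hg38) stood at -0.02 in the authors' deposited ALKBH5 table (SE 0.18, adjusted p = 0.919). For RBM33 its value was 1.33 in the authors' deposited RBM33 table (SE 0.19, adjusted p = 0.000174), a 2.51-fold difference. HSPA1B (chromosome 6, 31827738 to 31830254) was at 0.26 in the authors' deposited ALKBH5 table (SE 0.18, adjusted p = 0.223). It was at 1.41 in the authors' deposited RBM33 table (SE 0.19, adjusted p = 0.000112). Neither gene was called for ALKBH5 and both were positive for RBM33. The genes are near-identical copies, so reads can be shared between them and these are not separate measurements. HSPA6, a strictly stress-induced HSP70 on chromosome 1 (161524540 to 161526894), had the highest member value in the authors' deposited RBM33 table, 2.87 (SE 0.86, adjusted p = 0.016). In the authors' deposited ALKBH5 table it stood at 1.05 and was not called (SE 0.75, adjusted p = 0.245). Its average log2 CPM was only -0.12 in the authors' deposited ALKBH5 table and 0.80 in that for RBM33, and the RBM33 call was lost at an adjusted p of 0.01.

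The stretch before the start of these genes is shown because the sequences let the near-identical pair be seen side by side and hold the motif that HSF1 is known to bind, repeats of GAA in alternating direction. Each line gives the 150 bases before the RefSeq gene start (GRCh38.p14), 5′ to 3′ on the gene's strand. Capitals mark GAANNTTC in HSPA1A and HSPA1B and the longer GAANNTTCNNGAA or its reverse complement in HSPA6 and HSPA8. The windows are chr6:31815393-31815542 (plus strand) for HSPA1A, chr6:31827588-31827737 (plus) for HSPA1B, chr1:161524390-161524539 (plus) for HSPA6 and chr11:123062137-123062286 (minus) for HSPA8.
HSPA1A: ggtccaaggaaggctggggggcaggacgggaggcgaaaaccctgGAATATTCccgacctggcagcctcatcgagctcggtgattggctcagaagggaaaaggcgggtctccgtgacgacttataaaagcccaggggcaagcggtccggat
HSPA1B: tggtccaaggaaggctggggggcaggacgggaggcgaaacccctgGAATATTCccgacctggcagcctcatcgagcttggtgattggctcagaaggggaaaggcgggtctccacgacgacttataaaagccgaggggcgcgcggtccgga
HSPA6: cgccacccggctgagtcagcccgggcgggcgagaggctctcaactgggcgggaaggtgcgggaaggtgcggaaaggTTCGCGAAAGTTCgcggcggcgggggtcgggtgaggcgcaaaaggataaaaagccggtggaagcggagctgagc
HSPA8: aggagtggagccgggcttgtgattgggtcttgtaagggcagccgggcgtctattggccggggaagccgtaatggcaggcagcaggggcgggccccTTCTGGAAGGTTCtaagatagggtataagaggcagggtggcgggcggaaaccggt

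The HSPA1A and HSPA1B stretches aligned with 141 identical bases, 8 mismatches and 2 gaps, so the likeness of the pair extends past the coding part. RefSeq windows of 300 bases (250 before and 50 after each start) were matched by symbol for 69 of the 76 members. CCT6A, HSPA14, DNAJC1, BAG4, HSPB11, DNAJC22 and DNAJC24 had no entry. The 3-unit motif GAANNTTCNNGAA, searched on both strands, was in a window of 7 members (10.1%): DNAJA1, DNAJB6, HSP90AA1, HSP90AB1, HSPA6, HSPA8 and HSPD1. It was in 0.49% of all 35116 windows and in 0.483% of 10355 protein-coding genes of the tables that have one. The shorter GAANNTTC or TTCNNGAA, each its own reverse complement and part of every 3-unit match, was in windows of 21 members (30.4%), against 13.6% of those protein-coding genes and 13.5% of all windows. Of the 7 members with the 3-unit motif, 6 were negative and 0 positive in the authors' deposited ALKBH5 table, and 5 were negative and 1 positive in that for RBM33, against 45 negative of all 76 members in each; no test was made of so few genes.

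Most other genes of the family were negative for both baits. HSPA8, the constitutive HSP70 of the cytosol (HSC70) and also a target of HSF1, was negative at -0.67 in the authors' deposited ALKBH5 table (SE 0.14, adjusted p = 0.000944). For RBM33, 0.22 stood in the authors' deposited RBM33 table and was not called (SE 0.15, adjusted p = 0.231). HSPA9, the HSP70 of mitochondria (mortalin), was negative at -1.29 in the authors' deposited ALKBH5 table and -1.20 in that for RBM33 (adjusted p = 4.85e-06 and 0.000139). HSPA4, an HSP110-type exchange factor, stood at -1.59 in the authors' deposited ALKBH5 table and at -1.34 in that for RBM33 (adjusted p = 4.6e-07 and 4.44e-05). Its relative HSPH1, which is induced by heat, was at -1.50 in the authors' deposited ALKBH5 table (SE 0.12, adjusted p = 2.45e-07) and at -0.59 in that for RBM33 (SE 0.16, adjusted p = 0.0104), where it did not pass 0.01. HSPA14, which acts at the ribosome, was negative at -1.41 in the authors' deposited ALKBH5 table and -1.37 in that for RBM33. HSPA12A, a distant relative of the family, was positive at 1.11 in the authors' deposited ALKBH5 table and 1.20 in that for RBM33 (adjusted p = 0.000924 and 0.00119). HSPA4L, another HSP110-type gene, and HSPA13, of the endoplasmic reticulum, were negative at -0.57 and -0.61 in the authors' deposited ALKBH5 table and at -0.59 and -0.91 in that for RBM33. HSPA2, best known from male germ cells, was called in neither of the authors' deposited tables (0.04 and 0.96, average log2 CPM 1.24 and 0.81). In all, the 12 listed genes of the family, without HSPA5, had 7 negative and 1 positive call in the authors' deposited ALKBH5 table and 6 negative and 4 positive in that for RBM33. The 4 include the near-identical HSPA1A and HSPA1B and the low-abundance HSPA6. All genes were 29.1% negative and 30.5% positive in the authors' deposited ALKBH5 table, and 27.0% and 24.0% in that for RBM33.

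HSP90 mRNAs were negative throughout. HSP90AA1, the stress-inducible cytosolic HSP90, had the lowest member value in the authors' deposited ALKBH5 table, -2.08 (SE 0.22, adjusted p = 3.18e-06), a 4.23-fold difference. The authors' deposited RBM33 table had it at -1.17 (SE 0.21, adjusted p = 0.000648). HSP90AB1, the constitutive cytosolic form, was at -1.64 in the authors' deposited ALKBH5 table (SE 0.18, adjusted p = 4.21e-06) and at -1.14 in that for RBM33 (SE 0.18, adjusted p = 0.000269). HSP90B1, the form of the endoplasmic reticulum (GRP94), was at -1.25 in the authors' deposited ALKBH5 table (SE 0.14, adjusted p = 5.44e-06) and at -1.18 in that for RBM33 (SE 0.17, adjusted p = 0.000144). All 3 genes thus lay within 0.05 of each other in the authors' deposited RBM33 table, less than 1 SE, and further apart in that for ALKBH5. HSP90 also has pseudogenes with rows of their own that can share its reads: HSP90AB3P stood at -1.65 in the authors' deposited ALKBH5 table and -1.11 in that for RBM33, and HSP90B2P at 4.58 and 2.99. HSP90AA2P was at -0.905 and 0.97, HSP90AA3P at -0.79 and 2.28 and HSP90AB2P at 0.20 and 0.41. Of these further values, only that of HSP90AA2P for ALKBH5 was called.

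Chaperonin mRNAs lay close together. The CCT ring folds actin and tubulin and is built of TCP1 (subunit 1) and CCT2 to CCT8. Of the 9 listed genes, 8 were negative in each of the authors' deposited tables. Those 8 ranged from -1.58 (CCT3, adjusted p = 1.75e-06) to -1.07 (CCT8, adjusted p = 2.43e-06) in the authors' deposited ALKBH5 table, and from -1.33 (CCT3, adjusted p = 7.27e-05) to -1.01 (CCT6A, adjusted p = 0.000348) in that for RBM33. Between them lay CCT5, CCT7 and CCT2, at -1.55, -1.54 and -1.54 in the authors' deposited ALKBH5 table and -1.29, -1.31 and -1.06 in that for RBM33. TCP1 itself stood at -1.32 and -1.19 in the authors' deposited tables for ALKBH5 and RBM33 (SE 0.16 in both). The exception was CCT6B, a second gene for subunit 6 known from testis. It was positive at 1.32 in the authors' deposited ALKBH5 table (SE 0.45, adjusted p = 0.0218) and not called in that for RBM33 (0.445, SE 0.32, adjusted p = 0.269). CCT6B overlaps ZNF830 and LIG3 on the other strand, and its average log2 CPM was 2.41 and 3.09 in the authors' deposited tables for ALKBH5 and RBM33. The mitochondrial pair HSPD1 (HSP60) and HSPE1 (HSP10), which lie head to head on chromosome 2, was negative too. The listed span of HSPE1 lies within that of HSPD1 on the other strand, so the pair may not be separate measurements. Pseudogene rows that can share HSPD1 reads were HSPD1P1 (-1.52 and -0.27), HSPD1P4 (1.93 and 2.52) and HSPD1P6 (-0.54 and 1.31) in the authors' deposited tables. For CCT subunit 6 they were CCT6P1 (0.32 and -0.44, not called) and CCT6P3 (0.79 and 1.01, both called). HSPD1 stood at -1.42 in the authors' deposited ALKBH5 table (SE 0.15, adjusted p = 3.39e-06) and at -0.98 in that for RBM33 (SE 0.16, adjusted p = 0.000337). HSPE1 stood at -1.46 in the authors' deposited ALKBH5 table (SE 0.17, adjusted p = 5.97e-06) and at -1.43 in that for RBM33 (SE 0.28, adjusted p = 0.00119). The readthrough row HSPE1-MOB4 overlaps HSPE1 on the same strand and had -1.62 in the authors' deposited ALKBH5 table and -1.37 in that for RBM33.

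J proteins, which hand clients to HSP70, were the largest group and held both signs. The DNAJA genes are the closest relatives of bacterial DnaJ. DNAJA1 was negative at -1.75 in the authors' deposited ALKBH5 table (SE 0.11, adjusted p = 6.16e-08) and at -1.33 in that for RBM33 (SE 0.15, adjusted p = 2.75e-05). DNAJA2 stood at -1.52 in the authors' deposited ALKBH5 table and -1.26 in that for RBM33, but the mitochondrial DNAJA3 was called in neither (-0.09 and -0.34). Among 9 DNAJB genes, 2 were negative and 1 positive in the authors' deposited ALKBH5 table, and 3 and 1 in that for RBM33. Over all genes, 29.1% were negative and 30.5% positive in the authors' deposited ALKBH5 table, and 27.0% and 24.0% in that for RBM33. DNAJB1, the main heat-inducible J protein (HSP40), was not called in the authors' deposited ALKBH5 table (-0.39, SE 0.19, adjusted p = 0.0943) or in that for RBM33 (0.05, SE 0.20, adjusted p = 0.861). DNAJB11, a J protein of the endoplasmic reticulum, was the lowest of its class at -1.52 in the authors' deposited ALKBH5 table and -1.44 in that for RBM33. DNAJB4 was its positive exception, at 0.84 and 0.92 in the authors' deposited tables (adjusted p = 0.00724 and 0.0175). DNAJB2, enriched in neurons, was called for RBM33 only (-1.07, adjusted p = 0.00247), against -0.14 in the authors' deposited ALKBH5 table (adjusted p = 0.506). That difference was not tested.

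The 25 DNAJC genes share only the J domain and work in many places. Of them, 12 were negative and 4 positive in the authors' deposited ALKBH5 table, and 11 and 2 in that for RBM33. For both baits, the 5 members of nuclear or ribosome-linked function were negative in the authors' deposited tables, with medians of -1.67 and -1.55. DNAJC2, a chaperone on the ribosome (MPP11), was at -1.73 in the authors' deposited ALKBH5 table and -1.55 in that for RBM33. DNAJC8, found with spliceosomes, stood at -1.70 in the authors' deposited ALKBH5 table (SE 0.16, adjusted p = 1.1e-06) and at -1.89 in that for RBM33 (SE 0.16, adjusted p = 8.16e-06). DNAJC21, a factor of the maturing large ribosomal subunit, was at -1.67 and -1.58 in the authors' deposited tables. DNAJC17 and DNAJC9, a splicing-linked protein and a histone chaperone, completed the group at -1.18 and -0.70 in the authors' deposited ALKBH5 table and -0.83 and -1.06 in that for RBM33. DNAJC19, of the mitochondrial import machinery, stood at -0.92 in the authors' deposited ALKBH5 table (SE 0.28, adjusted p = 0.0113) and at -1.85 in that for RBM33 (SE 0.23, adjusted p = 6.38e-05). On the positive side, DNAJC27, a J protein with a RAS-like GTPase domain, had the highest member value in the authors' deposited ALKBH5 table, 1.72 (SE 0.35, adjusted p = 0.000761), and was not called in that for RBM33 (0.76, adjusted p = 0.158). DNAJC30, a single-exon gene for a mitochondrial protein, was positive at 1.38 and 1.15 in the authors' deposited tables (adjusted p = 0.00499 and 0.0174). DNAJC16 was positive at 0.68 and 0.72, and DNAJC22 at 0.98 for ALKBH5 only, in the authors' deposited tables. The average log2 CPM of DNAJC27, DNAJC30 and DNAJC22 was only 2.39, 2.22 and 2.33 in the authors' deposited ALKBH5 table. On the other strand, DNAJC27 overlaps DNAJC27-AS1, DNAJC30 overlaps BUD23 and DNAJC16 overlaps AGMAT. The readthrough transcript DNAJC25-GNG10, which joins DNAJC25 to a G protein gene and overlaps DNAJC25 on the same strand, had the lowest member value in the authors' deposited RBM33 table, -1.98 (SE 0.36, adjusted p = 0.000788). It was also negative in that for ALKBH5 (-1.66, SE 0.29, adjusted p = 0.000269). DNAJC25 itself stood at -0.91 in the authors' deposited ALKBH5 table (adjusted p = 0.002) and was not called in that for RBM33 (-0.35, adjusted p = 0.254). Endoplasmic reticulum members across families, without HSPA5, had 7 negative and 1 positive of 12 in the authors' deposited ALKBH5 table and 6 and 1 in that for RBM33. Mitochondrial members had 4 negative and 1 positive of 8 listed in each of the authors' deposited tables. Beside these counts, 59.2% of all 76 members were negative in each of the authors' deposited tables, and 10.5% (ALKBH5) and 9.21% (RBM33) positive. Of all genes, 29.1% and 27.0% were negative and 30.5% and 24.0% positive.

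BAG proteins release clients from HSP70. Of the 6, 4 were negative and 0 positive in each of the authors' deposited tables. Members as a whole were 59.2% negative in each, and 10.5% (ALKBH5) and 9.21% (RBM33) positive. All genes were 29.1% and 27.0% negative and 30.5% and 24.0% positive. With 6 genes, 0 positive calls do not set the family apart from the other members. BAG1 was lowest, at -1.55 in the authors' deposited ALKBH5 table (adjusted p = 1.17e-06) and -1.66 in that for RBM33 (adjusted p = 1.26e-05). BAG2 stood at -1.33 and -1.13 and BAG4 at -0.92 and -0.66 in the authors' deposited tables, all called. BAG3, the heat-inducible member that links HSP70 to autophagy, was negative at -0.61 in the authors' deposited ALKBH5 table (SE 0.14, adjusted p = 0.00151) and was not called in that for RBM33 (-0.05, SE 0.16, adjusted p = 0.83). BAG6, which guards membrane proteins before their insertion, was called in neither of the authors' deposited tables (-0.13 and -0.05), and BAG5 in that for RBM33 only (-0.53, adjusted p = 0.0362). Of the small heat shock proteins, HSPB1 (HSP27) was negative at -1.03 in the authors' deposited ALKBH5 table (adjusted p = 0.000457) and at -0.53 in that for RBM33 (adjusted p = 0.0342, which did not pass 0.01). HSPB8, the partner of BAG3, was at -0.71 and not called in the authors' deposited ALKBH5 table (adjusted p = 0.0944) and at -0.58 in that for RBM33 (adjusted p = 0.0488). HSPB11, a subunit of the intraflagellar transport complex rather than a typical small heat shock protein, was negative at -1.16 and -1.45 in the authors' deposited tables. HSPBP1, an HSP70 exchange factor caught by the same name pattern, stood at -0.85 and -0.80 in the authors' deposited tables. HSPBAP1, named for binding HSPB1, was positive in the authors' deposited ALKBH5 table (1.03, adjusted p = 0.00123) and not called in that for RBM33 (0.48).

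Members listed as heat-inducible targets of HSF1 mostly stood lower in the ALKBH5 table than in the RBM33 table. The list was chosen with earlier results of these data known. It holds HSPA8 and HSP90AB1, named above as constitutive forms, and only TCP1 and CCT2 of the CCT subunits. The near-identical HSPA1A and HSPA1B are counted separately in it. Of 16 such members, 15 had a lower value in the authors' deposited ALKBH5 table, the exception being HSPA4L. This held for 30 of the 60 other members (50.0%) and for 45.0% of all protein-coding genes in the authors' deposited tables. Among those 30 were HSP90B1 and the CCT subunits left off the list, except CCT8 and CCT6B. The lower value was thus not confined to the list. The median of the 16 was -1.18 in the authors' deposited ALKBH5 table (12 negative, 0 positive) and -0.59 in that for RBM33 (10 negative, 3 positive). The 3 are HSPA1A, HSPA1B and the low-abundance HSPA6. Members as a whole were 59.2% negative in each of the authors' deposited tables, and 10.5% (ALKBH5) and 9.21% (RBM33) positive. All genes were 29.1% and 27.0% negative and 30.5% and 24.0% positive. The other members had medians of -0.90 and -0.81 in the authors' deposited tables. The gap was about 0.9 for HSP90AA1, HSPH1 and HSPA8 and over 1 for HSPA1A, HSPA1B and HSPA6, and under 1 SE for HSPE1, TCP1 and HSPA4L, as the plot of these 16 genes shows. How the tables were normalized and whether they share libraries is not stated, so the difference between them was not tested.

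**Figure D2:**
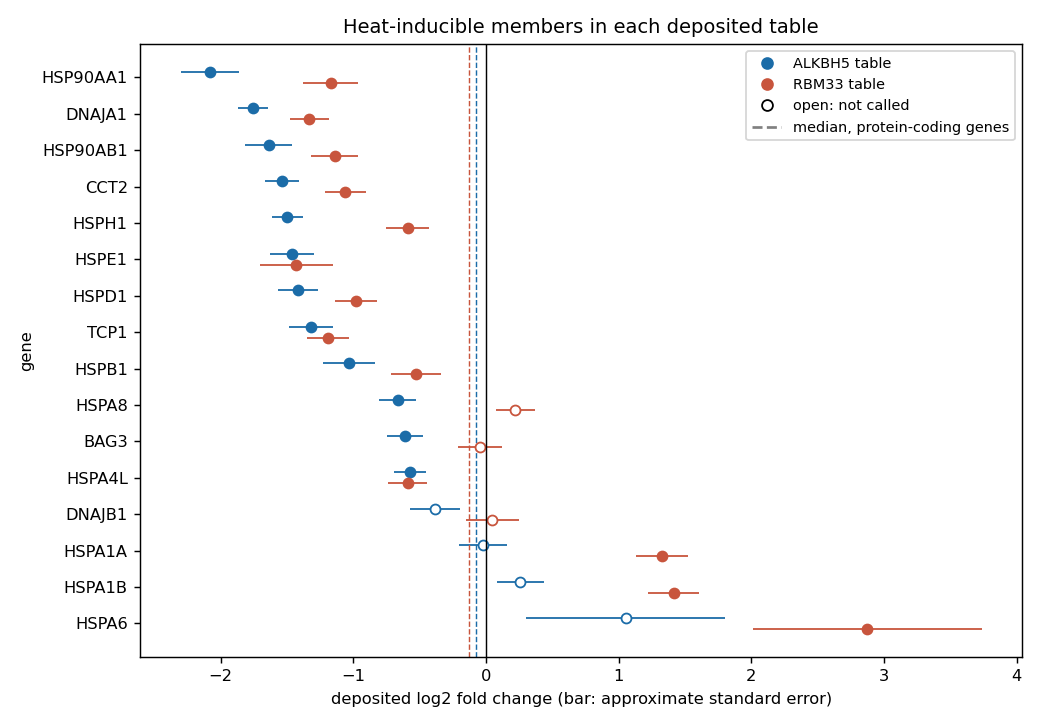
Deposited log2 fold change (horizontal axis) of the 16 members listed as heat-inducible (vertical axis, ordered by the ALKBH5 value), in the ALKBH5 table (blue) and the RBM33 table (red). Bars are approximate standard errors, open points were not called, and dashed lines are the protein-coding medians of -0.08 and -0.13. The red point lies right of the blue one for every gene but HSPA4L, and only HSPA1A, HSPA1B and HSPA6 are called on the positive side, all in the RBM33 table.

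The exons of HSPA1A, HSPA1B, HSPA6, DNAJC30 and HSPB1 cover their whole listed span, as in genes without introns, although HSPB1 is known to have introns and fills its span through overlapping transcripts. Of these 5 members, 1 was positive (DNAJC30), 1 negative (HSPB1) and 3 not called in the authors' deposited ALKBH5 table, and 4 were positive and 1 negative (HSPB1) in that for RBM33. Such genes in general held both signs, with negative calls more frequent. Of 334 protein-coding genes with this feature, 56 carried a positive call and 113 a negative one in the authors' deposited ALKBH5 table. The authors' deposited RBM33 table had 37 and 115. Among all 13210 protein-coding genes, positive calls made up 27.5% and negative calls 33.3% of the authors' deposited ALKBH5 table. For the authors' deposited RBM33 table these shares were 21.5% and 31.2%. Without genes of histone name, the 292 left of the 334 had medians of -0.00 and -0.07 in the authors' deposited tables. Of the 292, 56 carried a positive call and 75 a negative one in the authors' deposited ALKBH5 table. The authors' deposited RBM33 table had 37 and 76. These 5 members were picked out after their values were seen.

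Listed gene length, which counts all annotated exon bases and is not the length of 1 mRNA, related weakly to the members' values. Across the 76 members, Spearman's rho was 0.15 in the authors' deposited ALKBH5 table and 0.14 in that for RBM33, against 0.41 and 0.45 across 13210 protein-coding genes. These describe genes within a table, which share libraries and are not independent replicates. Protein-coding genes were split into 5 bins of like size by listed length. Among the longest, from 8652 bases, the 9 members' median stood at -0.57 in the authors' deposited ALKBH5 table and -0.59 in that for RBM33, against 0.54 and 0.54 for all protein-coding genes of that bin. Of these 9 members, 5 were negative and 1 positive in each of the authors' deposited tables. All protein-coding genes of that bin were 15.4% negative and 52.6% positive for ALKBH5, and 12.7% and 46.8% for RBM33. The negative members included DNAJB6 at -1.25 and -1.14, DNAJC7 at -1.22 and -1.23 and HSPA9 at -1.29 and -1.20 in the authors' deposited tables. HSPA12A was positive at 1.11 and 1.20, and DNAJC10, DNAJB14 and DNAJC13 were called in neither. Among the shortest, up to 2919 bases, 20 members had medians of -0.97 and -0.78, against -0.81 and -0.90 for all protein-coding genes of that bin, in the authors' deposited tables. The gap between members and genes of like listed length was thus wide where genes were long and small where they were short, with the members higher in the shortest bin for RBM33.

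Abundance, which is not corrected for length here, went with the values more closely, and its part in them was not tested. Across members, rho with the average log2 CPM was -0.58 in the authors' deposited ALKBH5 table and -0.47 in that for RBM33, against -0.27 in both across protein-coding genes. The 29 members in the top bin of average log2 CPM were negative for 25 genes in the authors' deposited ALKBH5 table and for 24 in that for RBM33, and positive for 0 in either. Of all protein-coding genes of that bin, 59.3% were negative and 22.9% positive in the authors' deposited ALKBH5 table, and 57.6% and 20.3% in that for RBM33. The 29 members' medians were -1.42 and -1.18, against -0.57 and -0.61 for all protein-coding genes of that bin in the authors' deposited tables. In the bottom bin, the 8 members' median stood at 1.02 in the authors' deposited ALKBH5 table (4 positive, 0 negative), against 0.29 for all protein-coding genes there, and that of 6 members at 0.86 in that for RBM33 (2 positive, 0 negative), also against 0.29. Of all protein-coding genes of the bottom bin, 21.7% had a positive call and 7.23% a negative one in the authors' deposited ALKBH5 table, and 14.9% and 5.79% in that for RBM33, so few negative calls are the rule there.

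**Figure D3:**
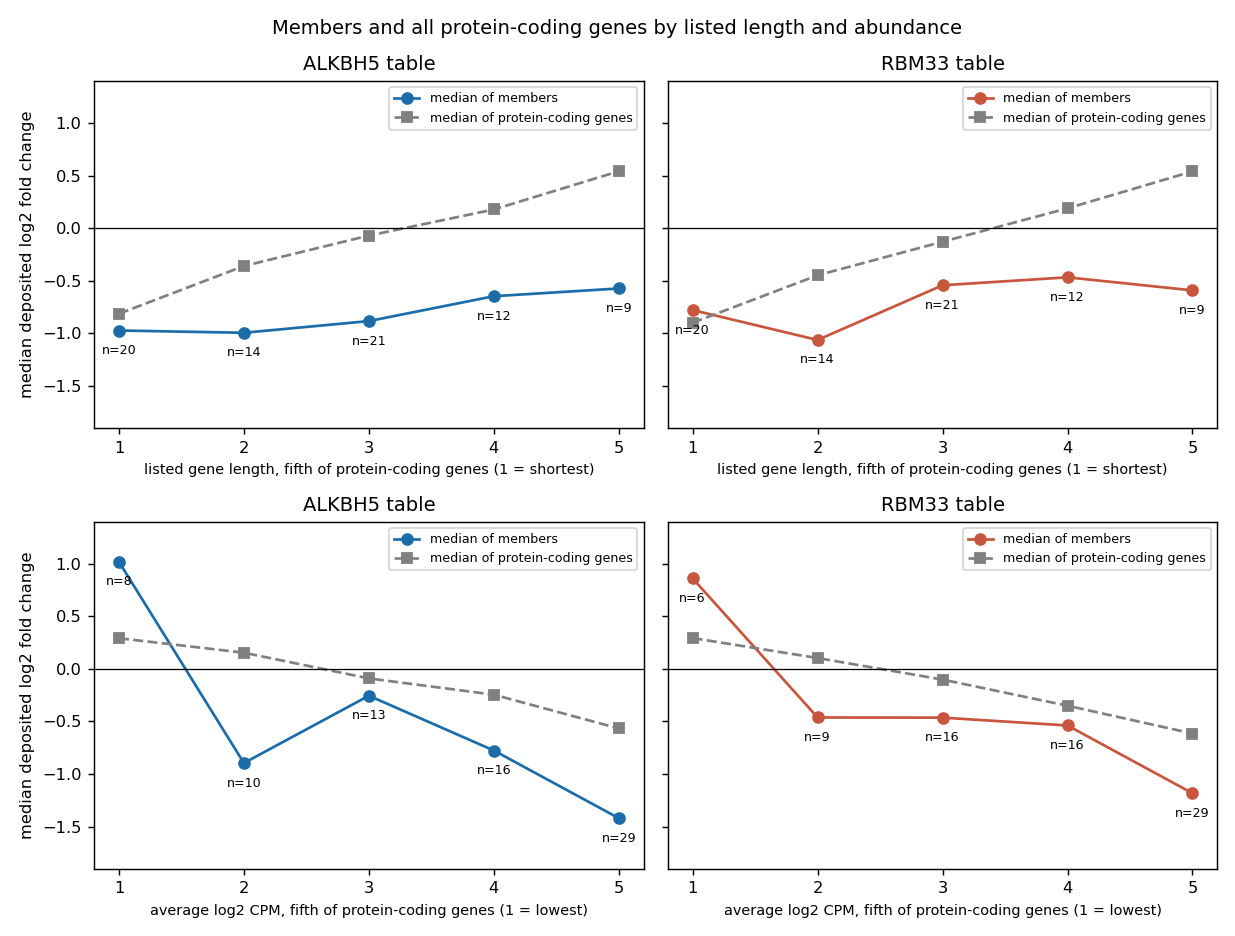
Median deposited log2 fold change (vertical axis) of members (circles, with their number) and of all protein-coding genes (squares) in 5 bins of listed gene length (top row) and of average log2 CPM (bottom row), in the ALKBH5 table (left) and the RBM33 table (right). Members lie near the squares in the shortest bin and below them in the longest (-0.57 and -0.59 against 0.54), and most bins hold under 20 members.

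Genes that work with the members or are related to them but fall outside the name rule went mostly the same way. Of 22 genes listed as co-chaperones of HSP90 and HSP70, 17 were negative and 1 positive in each of the authors' deposited tables, with medians of -0.91 and -0.94. All genes were 29.1% negative and 30.5% positive in the authors' deposited ALKBH5 table, and 27.0% and 24.0% in that for RBM33. The list also holds TRAP1 and HYOU1, which are themselves relatives of HSP90 and HSP70. ST13 (HIP), which steadies HSP70, was at -1.95 in the authors' deposited ALKBH5 table and -1.42 in that for RBM33, and PPID (cyclophilin 40), an HSP90 partner, at -1.80 and -1.89. AHSA2P, a relative of the HSP90 activator AHSA1 that carries a pseudogene symbol, was the positive exception at 2.69 and 2.36 in the authors' deposited tables. Prefoldin, which delivers clients to CCT, had 6 of 6 subunits negative in the authors' deposited ALKBH5 table and 5 of 6 in that for RBM33. Its genes are short, with a median listed length of 2050 bases. In the shortest bin, up to 2919 bases, 53.6% (ALKBH5) and 52.3% (RBM33) of protein-coding genes were negative. PFDN4 stood at -2.60 and -1.96 and PFDN2 at -2.01 and -2.02 in the authors' deposited tables. Of J proteins with other names, GAK, which uncoats clathrin vesicles, was positive at 1.22 and 1.17, whereas SEC63, at the protein channel of the endoplasmic reticulum, was at -1.53 and -1.26 and HSCB, of iron-sulfur cluster assembly, at -1.19 and -1.23 in the authors' deposited tables. Among the regulators, HSF1 was at -0.46 in the authors' deposited ALKBH5 table (adjusted p = 0.00649) and at -0.33 in that for RBM33 (adjusted p = 0.0677). HSBP1, which binds and restrains HSF1, was at -2.03 and -2.00 in the authors' deposited tables, and HSF4, a factor of the eye lens, at 3.75 and 2.31.

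Rows that overlap can mix reads. Of the 76 members, 33 overlap another listed row, 13 of them on the same strand and 27 on the other. The strand setting of the counting is not given in the sources used here.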

How the data were processed

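RIP-seq libraries of cells labelled UM-SCC-1, made from fragmented RNA with a stranded total RNA kit per the labels' protocols, were processed by the authors with tools that include HISAT2 2.1.0, cutadapt 1.18, edgeR 3.24.3, Subread 1.6.4 and featureCounts, and the build hg38, per the submitters' processing notes. Not given in the sources used here are the contrast, its direction, the annotation release, the strand setting, the low-count filter and the normalization. Per the file headers, each gene of the deposited tables has a log2 fold change with its F statistic and p-values, and a mean log2 CPM. The F statistic in the deposited tables is a score with no fixed range. The p-value and its Benjamini-Hochberg adjusted p-value are the authors'; recomputing the adjustment over 16324 genes gave the deposited values. Listed gene length is the deposited sum of annotated exon bases.

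The tables hold no value per library, so no model was fitted across genes, and depth is unknown. A gene was called where that adjusted p-value was under 0.05, by the sign of its log2 fold change. Approximate standard errors are the size of the log2 fold change over the square root of F, which has 1 numerator degree of freedom for 1 contrast. Members, lists and tests were chosen with earlier results of these data known. All members could be named; the text details fixed core members, the 8 most extreme called members on each side of each table and each family's ends, and of other lists the 2 called genes furthest from 0 on each side. Scripts used Python 3.11.15, pandas 2.3.3 and Biopython 1.88, and counting was tested on simulated data. Promoter sequences are RefSeq's (GRCh38.p14). Alternatives were a stricter threshold, a minimum size, an abundance minimum, Bonferroni adjustment, centring, listed length, and leaving out near-identical copies. One gene of the lists outside the members is not reported here.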

Additional observations from a re-analysis of the deposited data

How the results depend on the processing

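The negative calls among the 76 members stayed within 1.5 times of 45 in each of the authors' deposited tables under all alternatives run except Bonferroni adjustment, which left 7 in the one for RBM33 (30 for ALKBH5). Positive calls were fewer under several settings. The authors' deposited ALKBH5 table had 8, of which 5 passed an adjusted p of 0.01, 5 had a size of at least 1 log2 unit, 2 were of at least median abundance and 0 passed Bonferroni adjustment. The authors' deposited RBM33 table had 7, of which 3 passed 0.01, 4 were of at least median abundance and 0 passed Bonferroni adjustment. The members' medians of -0.91 and -0.78 kept their sign in all settings. They were -0.58 and -0.50 after subtracting the protein-coding median of the same bin of listed length, and -1.15 and -1.01 among members of at least median abundance, in the authors' deposited tables for ALKBH5 and RBM33. Without HSPA1A, HSPA1B, HSP90AA1, HSP90AB1 and both readthrough transcripts, a setting chosen after seeing the data, 41 members were negative in each of the authors' deposited tables and 8 and 5 positive. The planned removal of near-identical copies by protein identity was not run, since no protein sequences were used here. No paired analysis was possible because the tables hold no value per library, and leaving out a replicate was not possible for the same reason.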
